A study of Mus musculus with 12 samples.

Results

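MiR-126, miR-221 and miR-222, small RNAs best known from the endothelium, were followed across the 4 groups of mouse hearts by 4 of the 1881 miRNAs on the array. These are mmu-miR-126a-3p and mmu-miR-126a-5p, the 2 arms of 1 hairpin, and mmu-miR-221-3p and mmu-miR-222-3p, which come from neighbouring hairpins. They were picked by name, and each was looked up in the scanner output of every array. The 12 arrays, 1 per heart, came from male C57BL6/J mice aged 5 months, with 3 hearts in each group. C were control mice and C + P control mice given pargyline, an inhibitor of monoamine oxidase (MAO), at 50 mg/kg per day for 12 weeks. D were mice made diabetic with streptozotocin, a toxin of pancreatic beta cells, at 50 mg/kg per day on 5 days, with diabetes defined as a blood glucose of at least 17 mM, and D + P were diabetic mice given the same pargyline course. The labels name no allele or transgene, and streptozotocin models a loss of insulin.

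A miRNA is cut from a hairpin precursor, and either arm of the hairpin can be loaded onto an Argonaute protein, where the bases near its 5′ end, the seed, select target mRNAs. MiR-126 comes from an intron of Egfl7, a gene of endothelial cells, and its 3p arm sustains growth factor signalling in vessels by repressing inhibitors such as Spred1, while the 5p arm is known for a role in endothelial proliferation through Dlk1. MiR-221 and miR-222 are known to repress Kit in endothelial cells and the cell cycle inhibitor Cdkn1b in smooth muscle, so the pair is not specific to endothelium.

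The mature sequences are shown because the pair shares its seed and miR-126a-3p has another. Of the 4 miRNAs, 3 were found in the RefSeq table (build GRCm38.p6), the exception being mmu-miR-126a-5p. Capitals mark the seed, bases 2 to 8 from the 5′ end, and mmu-miR-1928 is printed as the other miRNA of the table with the seed of the pair.
mmu-miR-126a-3p: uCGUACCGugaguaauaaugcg
mmu-miR-221-3p: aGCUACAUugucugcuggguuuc
mmu-miR-222-3p: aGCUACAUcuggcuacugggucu
mmu-miR-1928: aGCUACAUugccagcuc

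Mmu-miR-126a-3p lies at chr2:26591402-26591423 on the plus strand, and the Mir126a hairpin (chr2:26591357-26591429) falls inside the RefSeq bounds of Egfl7 (chr2:26581083-26592682). The opposite strand holds the hairpin of mmu-miR-126b, whose 5p arm overlaps miR-126a-3p by 19 bases, all of them exact complements. Mmu-miR-221-3p lies at chrX:19146307-19146329 and mmu-miR-222-3p at chrX:19146901-19146923, both on the minus strand, and 504 bases separate the hairpins. The pair has the same base at the first 8 positions and at 11 of 23 positions in all. None of mmu-miR-221-5p, mmu-miR-222-5p, mmu-miR-126b-3p, mmu-miR-126b-5p and mmu-miR-1928 was detected on any array, though the array carries probes for each.

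The C arrays were the dimmest. Each of them detected at most 163 of the miRNAs, whereas every other array detected at least 165 and C + P 3 as many as 253. The mean log2 signal of 10 control features was at most 10.56 on C arrays, at least 11.03 on C + P and D arrays, and between 10.29 and 11.10 on D + P arrays. Hearts without pargyline were hybridised on slide 1 and pargyline-treated hearts on slide 2, which means that an effect of the slide and one of pargyline cannot be told apart. Diabetic and non-diabetic mice lay on different rows of both slides, so row and diabetes cannot be told apart either. Each scanner signal below is unnormalized, and each normalized value is a log2 signal after cyclic loess, a smoothing that removes differences in brightness between arrays, so that a change is relative to the average miRNA.

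**Figure D1:**
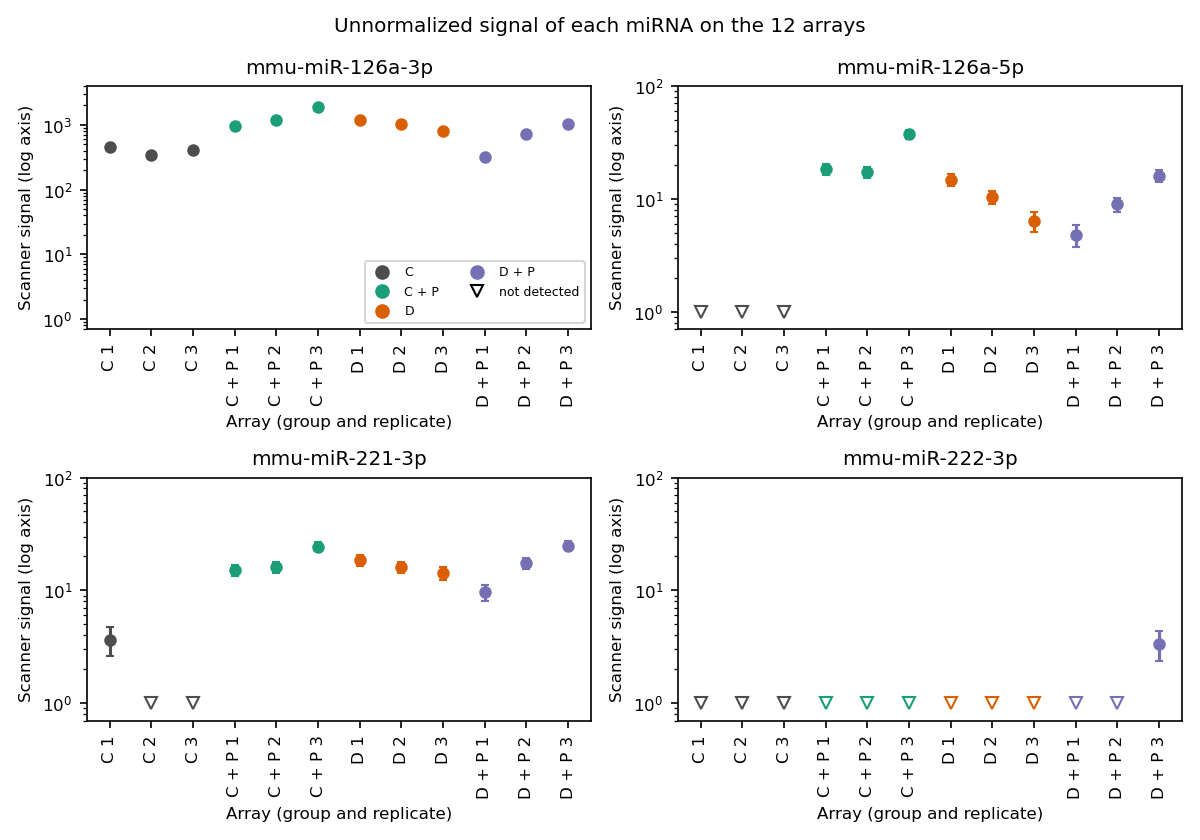
Scanner signal (log axis, no unit, bars give the scanner's own error) of the 4 miRNAs on each of the 12 arrays, coloured by group. Open triangles at the bottom stand for arrays on which the miRNA was not detected and carry no value. MiR-126a-3p was detected on every array, miR-126a-5p on no C array, miR-221-3p on 1 C array and miR-222-3p on D + P 3 alone.

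MiR-126a-3p, the better known arm of its hairpin, was detected in all 12 hearts. Its scanner signals were 459, 344 and 413 in C 1 to 3, 977, 1200 and 1921 in C + P 1 to 3, 1186, 1045 and 802 in D 1 to 3, and 322, 724 and 1019 in D + P 1 to 3. The D + P hearts thus ran from below every C heart to within the range of the D hearts, while C + P and D lay wholly above C. The scanner's own error was 7.12% to 7.24% of the signal, which is more than the gap between D + P 1 and C 2. In tissue made of many cell types, fewer cells of a type and less RNA per cell cannot be told apart.

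After normalization most of this spread was gone. The mean log2 signal of miR-126a-3p was 9.43 ± 0.053 in C, 9.75 ± 0.089 in C + P, 9.63 ± 0.011 in D and 9.43 ± 0.17 in D + P (± SD, 3 arrays). All pairs of groups were without overlap except C and D + P, but some gaps were small. The lowest C + P value was 9.648 and the highest D value 9.639, and the lowest D value was 9.617 and the highest D + P value 9.599. The share of all miRNAs without overlap was not counted, so a lack of overlap is a description only, here and below. In order, C + P stood highest, then D, then D + P and C with almost equal means.

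Between neighbours in this order, D was lower than C + P by -0.12 (standard error 0.12, limma adjusted p = 0.622), D + P than D by -0.20 (limma adjusted p = 0.171), and D + P differed from C by 0.0051 (limma adjusted p = 0.984). None passed the threshold of 0.05, in comparisons in which 3.12%, 53.9% and 1.56% of the 128 miRNAs detected on all arrays passed. The 95% intervals of these 3 differences ran from -0.38 to 0.14, from -0.46 to 0.067 and from -0.26 to 0.27.

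Diabetes alone gave no change of miR-126a-3p past the threshold. D against C gave a log2 change of 0.20 (standard error 0.12, 95% interval -0.062 to 0.46, limma adjusted p = 0.171), in a comparison in which 50% of the 128 miRNAs passed. With quantile normalization the change was 0.62 and passed (limma adjusted p = 0.0309), and without normalization it was 1.31 and passed, where the median of the 128 miRNAs was itself 0.77.

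Pargyline in control hearts gave a larger value that also fell short. C + P against C was 0.32 (standard error 0.12, 95% interval 0.058 to 0.58, limma adjusted p = 0.0540), where 36.7% of the 128 miRNAs passed, and D + P against C + P was -0.32 (95% interval -0.58 to -0.053, limma adjusted p = 0.0753), where 13.3% passed. Leaving out single D + P arrays changed both calls. C + P against C passed without D + P 1 (0.34, limma adjusted p = 0.00691) or D + P 3 (0.32, limma adjusted p = 0.0302). Neither array is in that comparison, and its value hardly moved. Its standard error, which all groups share, fell from 0.12 to 0.088 and 0.11. D + P against C + P passed without D + P 3 (-0.40, limma adjusted p = 0.0170).

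The effect of pargyline on miR-126a-3p differed between diabetic and control hearts. The interaction, which is the change with pargyline in diabetic hearts minus that in control hearts, was -0.52 (standard error 0.17, 95% interval -0.89 to -0.14, limma adjusted p = 0.0179). It passed for 70.3% of the 128 miRNAs, so a pass was the common case. Its size depended on the scaling, at -1.03 with quantile normalization and -1.03 with scaling to the 75th percentile. With the control features as a covariate it was -0.17 and did not pass (limma adjusted p = 0.814). The mean of these features was lower on every C array than on any C + P or D array. This covariate therefore cannot separate brightness from group, here or below.

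**Figure D2:**
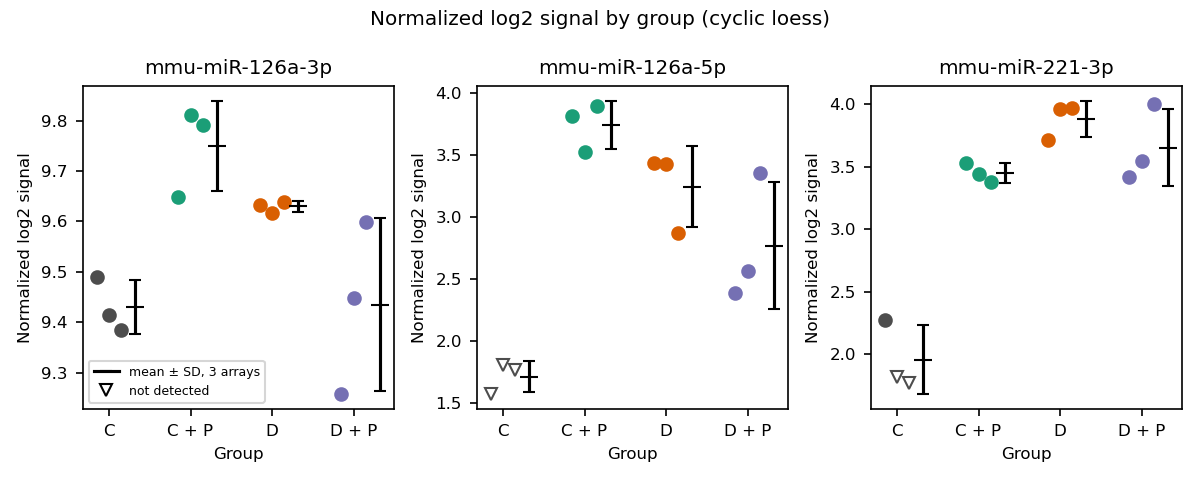
Normalized log2 signal (cyclic loess, y axis, each panel with its own range) of the 3 miRNAs that could be fitted, by group. Points are arrays, open triangles are undetected arrays placed at the array's lowest detected signal, and bars are mean ± SD of 3 arrays. C lies below C + P and D without overlap in each panel, while D + P overlaps C in miR-126a-3p only.

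MiR-126a-5p, the other arm of the hairpin, was close to the detection limit. It was undetected in all 3 C hearts. Its scanner signals were 18.4, 17.2 and 37.4 in C + P 1 to 3, 14.7, 10.4 and 6.33 in D 1 to 3, and 4.78, 8.93 and 15.99 in D + P 1 to 3. C + P lay above both diabetic groups, which overlapped each other, and the scanner's error was 9.42% to 22.4% of the signal.

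Because of the undetected hearts, this arm was fitted among the 209 miRNAs detected in every heart of 1 or more groups, and each missing value was replaced by the faintest signal detected on the same array. The mean normalized log2 signal was 3.74 ± 0.19 in C + P, 3.24 ± 0.33 in D and 2.77 ± 0.51 in D + P (± SD, 3 arrays), and the C arrays stood at their substituted values of 1.71 ± 0.13. The order was C + P, D, D + P and C. D was lower than C + P by -0.50 (limma adjusted p = 0.298, 95% interval -1.06 to 0.058) and D + P than D by -0.48 (limma adjusted p = 0.127, 95% interval -1.03 to 0.082), so neither step passed, in comparisons in which 4.78% and 47.8% of the 209 miRNAs did.

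This arm entered the fit only through the groups in which it was detected, and all 3 C values were substituted, so that choice largely fixes the direction of each change against C. The values are a description, and the p-values are no independent support. The log2 change was 1.53 in D (standard error 0.25, limma adjusted p = 0.00294), 2.03 in C + P (limma adjusted p = 6.0e-04) and 1.06 in D + P (limma adjusted p = 0.0366), where 46.9%, 18.2% and 4.78% of the 209 miRNAs passed. Set against the substituted signals, C + P was 4.09-fold, D 2.89-fold and D + P 2.08-fold higher than C. With quantile normalization these folds were 5.18, 3.27 and 2.26, and with scaling to the 75th percentile 5.46, 2.82 and 3.02. With 16 added to every signal before the log2, the log2 changes shrank to 0.65 in C + P, 0.32 in D and 0.17 in D + P.

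These folds are no strict lower bounds. The lowest detected signals of the C arrays, 1.73 to 2.24, belonged to other miRNAs, while miR-126a-5p was never called detected below 4.78. With undetected hearts set to that lowest signal of miR-126a-5p itself, C + P against C passed (1.14, limma adjusted p = 0.0223). D against C (0.50, limma adjusted p = 0.186) and D + P against C (0.075, limma adjusted p = 0.895) did not. By scanner signal no detected heart lay below that value, so the direction was again largely fixed in advance. The pass is no independent support. With the control features as a covariate none of the 3 passed, at 1.01 in D, 1.45 in C + P and 0.82 in D + P (limma adjusted p = 0.293, 0.0529 and 0.0619).

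Within the pargyline-treated hearts, which shared a slide, miR-126a-5p was lower in diabetic mice. D + P against C + P was -0.98 (standard error 0.25, 95% interval -1.53 to -0.42, limma adjusted p = 0.0495), in a comparison in which 5.74% of the 209 miRNAs passed. The groups did not overlap, but the call was lost on leaving out any 1 of 10 of the 12 arrays, all but D 3 and D + P 3, with values from -1.27 to -0.78. D + P against C lost its call without any 1 of 9 arrays, all but D 1, D 3 and D + P 1, with values from 0.77 to 1.22. Without D + P 3, the brightest D + P array, D + P against D was -0.78 and passed (limma adjusted p = 0.00855).

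The interaction of miR-126a-5p was -2.51 (standard error 0.36, 95% interval -3.29 to -1.72, limma adjusted p = 0.00191), and 58.9% of the 209 miRNAs passed in it. It contains the substituted C values, and with 16 added it was -0.80. With undetected hearts set to the miRNA's own lowest signal it was -1.57 and passed (limma adjusted p = 0.00723), but the C values are substituted there too. With the control features as a covariate the interaction was -1.64 and did not pass (limma adjusted p = 0.400).

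Both arms are cut from 1 precursor, and their signals were compared within each heart. The ratio of signals of different probes is not a ratio of molecules, and normalization moved it unequally between arrays. The signal of miR-126a-3p over that of miR-126a-5p was 53.1, 69.8 and 51.3 in C + P 1 to 3, 80.6, 100.2 and 126.8 in D 1 to 3, and 67.3, 81.0 and 63.7 in D + P 1 to 3. D 2 and D 3 had the highest ratios, D 1 lay just under the highest D + P heart, and every D ratio was above every C + P ratio. No C heart gave a ratio, as the 5p arm was undetected there.

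On the log2 scale after normalization, the difference of the arms was 6.06 ± 0.24 in C + P, 6.46 ± 0.30 in D and 6.61 ± 0.30 in D + P (± SD, 3 arrays). D + P exceeded C + P by 0.55 (exact permutation test, two-sided, p = 0.2, 0.4 after Benjamini-Hochberg adjustment over 2 comparisons), and D + P exceeded D by 0.14 (exact permutation p = 0.7). Without normalization the first was 0.29 (exact permutation p = 0.3) and the second turned to -0.52 (exact permutation p = 0.2). The smallest p that 3 arrays against 3 allow is 0.1, so an unequal change of the arms could not pass in this design.

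In C, the 3p signals of 344 to 459 would go with 5p signals of 2.71 to 8.96 at the ratios measured in the other hearts, 51.3 to 126.8. The lowest signal at which the 5p arm was detected, 4.78, lies inside that span. The ratio in the C hearts itself was not measured.

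**Figure D3:**
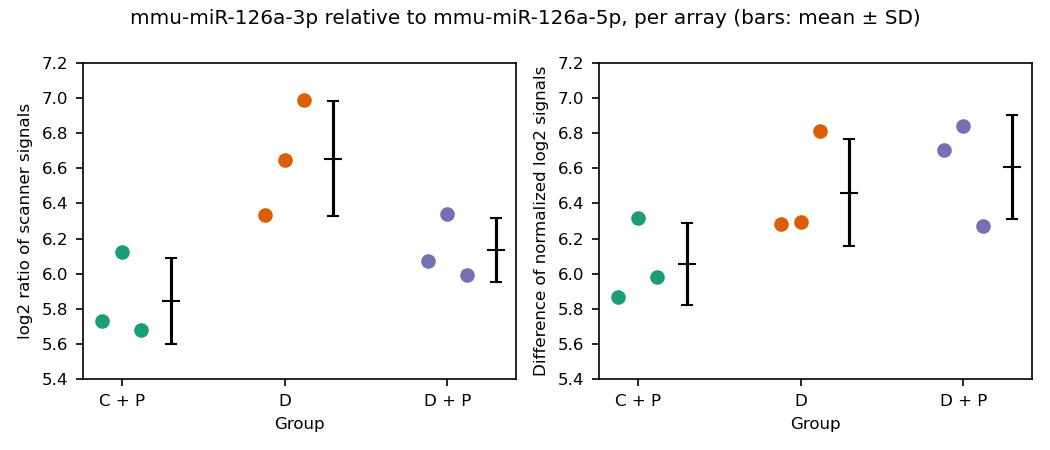
MiR-126a-3p relative to miR-126a-5p in the 9 hearts with both arms detected, as the log2 ratio of scanner signals (left) and as the difference of normalized log2 signals (right). Points are arrays and bars are mean ± SD of 3 arrays. D is highest in the left panel, D and D + P lie close together in the right one, and C + P is lowest in both.

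Across the 9 hearts with both arms detected, normalized signals of the arms were correlated (Pearson r = 0.86, exact permutation p = 0.00341, 0.0102 after adjustment over the 3 pairs of miRNAs that could be compared). Spearman's rho was 0.80 (exact permutation p = 0.0138, adjusted 0.0415). Without the 2 hearts farthest from the median of miR-126a-3p, r was 0.51 over 7 hearts (exact permutation p = 0.210), so the relation rests on those hearts. Among the 6 hearts of slide 2, r was 0.92 (exact permutation p = 0.0139) and rho 0.94 (exact permutation p = 0.0167), and slide 1 had too few hearts with both arms. With quantile normalization r was 0.64 (exact permutation p = 0.0847). The permutations moved hearts between groups, so these p-values also carry differences between groups. Other miRNAs had a higher r with each arm, as miR-499-5p did with miR-126a-5p (0.92 over 9 hearts) and miR-223-3p with miR-126a-3p (0.94 over 12 hearts). The correlation is thus not particular to the 2 arms.

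MiR-221-3p, a regulator of growth in both endothelium and smooth muscle, was detected in 10 of 12 hearts. In C it was 3.67 in C 1 and undetected in C 2 and C 3. Its scanner signals were 15.2, 16.2 and 24.4 in C + P 1 to 3, 18.5, 16.1 and 14.3 in D 1 to 3, and 9.59, 17.4 and 24.9 in D + P 1 to 3. The lowest of these 9 hearts was above the single C signal, and the 3 groups overlapped one another. The scanner's error was 8.90% to 29.1% of the signal, the highest in C 1.

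Normalized among the 209 miRNAs, the mean log2 signal of miR-221-3p was 3.88 ± 0.15 in D, 3.65 ± 0.31 in D + P and 3.45 ± 0.080 in C + P, against 1.96 ± 0.28 in C, where 2 of 3 values were substituted (± SD, 3 arrays). It too entered the fit only through C + P, D and D + P. The changes against C are therefore given as a description, and their p-values are no independent support. It was higher than in C by 1.93 in D (standard error 0.19, 95% interval 1.50 to 2.35, limma adjusted p = 1.5e-04), by 1.70 in D + P (95% interval 1.27 to 2.12, limma adjusted p = 5.3e-04) and by 1.49 in C + P (95% interval 1.07 to 1.92, limma adjusted p = 6.0e-04). Of the 209 miRNAs, 46.9%, 4.78% and 18.2% passed in these comparisons. All 3 calls were kept when an undetected value was set to the lowest detected signal of miR-221-3p itself, at 1.54, 1.30 and 1.17. That signal, 3.67, was the one of C 1 and lay below every heart of the other groups, so this outcome was nearly fixed in advance. With 16 added to every signal the changes shrank to 0.54, 0.46 and 0.38, and that of D + P did not pass (limma adjusted p = 0.0563). Within slide 1 normalized alone, D against C was 1.91 (limma adjusted p = 2.5e-04). With the control features as a covariate C + P against C did not pass (1.21, limma adjusted p = 0.0529). With the deposited normalized values the changes were 1.15, 1.33 and 1.00 and none passed (limma adjusted p = 0.191, 0.186 and 0.236).

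Among the 3 upper groups no step passed. D + P against D was -0.23 (95% interval -0.65 to 0.19, limma adjusted p = 0.297), D + P against C + P was 0.20 (95% interval -0.22 to 0.63, limma adjusted p = 0.433), and D was above C + P, without overlap after normalization, by 0.43 (95% interval 0.0093 to 0.86, limma adjusted p = 0.229). The interaction, which contains the substituted C values, was -1.72 (standard error 0.27, 95% interval -2.32 to -1.13, limma adjusted p = 0.00289), and -0.46 with 16 added. It passed for 58.9% of the 209 miRNAs. With the control features as a covariate the interaction was -1.29 and did not pass (limma adjusted p = 0.417), and with the deposited normalized values it was -0.82 and did not pass (limma adjusted p = 0.491).

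MiR-222-3p, which shares the seed of miR-221-3p, was detected in 1 of 12 hearts. Its scanner signal was 3.36 in D + P 3, with a scanner error of 0.982, or 29.2%, and it was undetected in the other 11 hearts. D + P 3 also had the highest miR-221-3p signal of the 12, 24.9. With 1 detected heart no comparison between groups was possible, and the ratio of miR-221-3p to miR-222-3p could not be compared. What was undetected here need not be absent, since its level may lie under the detection limit. MiR-222-3p passed the filter of neither fit.

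No relation of miR-221-3p with the miR-126a arms passed a test over all hearts. Over the 10 hearts in which both were detected, its normalized signal correlated with that of miR-126a-3p with r = 0.29 (permutation p = 0.375) and rho = 0.030 (permutation p = 0.946), and r was 0.47 over 8 hearts without the 2 farthest ones. With miR-126a-5p, over 9 hearts, r was -0.042 (exact permutation p = 0.899) and rho -0.33 (exact permutation p = 0.385). Without the 2 farthest hearts that r was -0.78 (exact permutation p = 0.0202, 7 hearts), and with quantile normalization of all 9 it was 0.23. On slide 2 the r values were 0.020 and 0.020. Before normalization r was 0.75 and 0.78, where the brightness of the array is shared by all miRNAs.

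**Figure D4:**
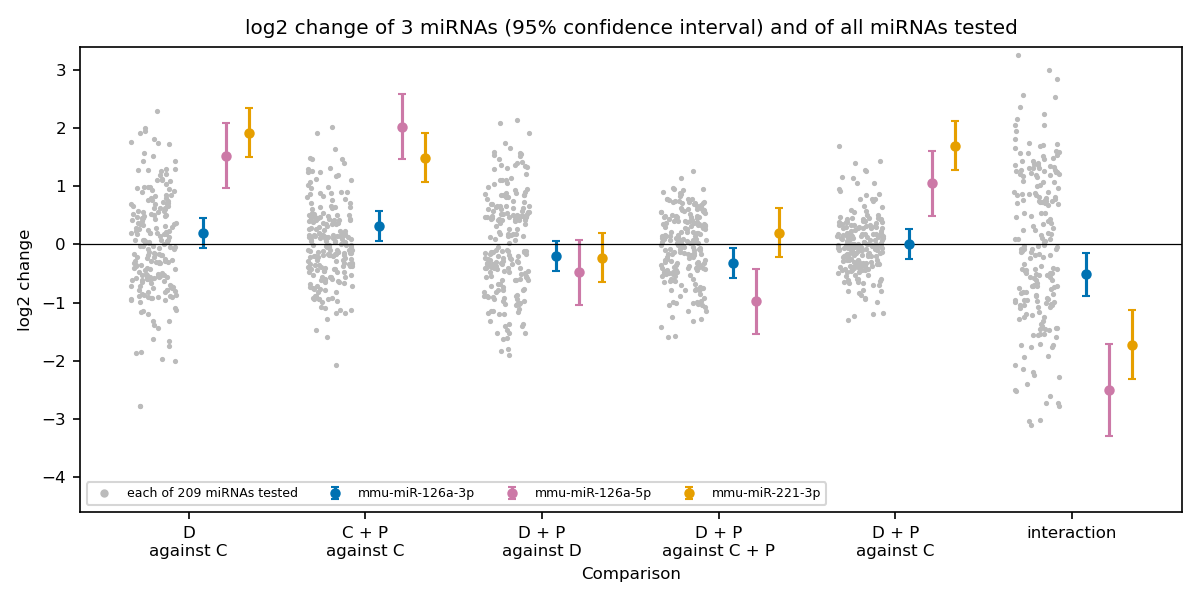
Log2 change (y axis) of the 3 miRNAs in each comparison, with 95% confidence intervals from limma, beside the changes of the 209 miRNAs detected in every heart of 1 or more groups (grey points, these 3 included). MiR-126a-5p and miR-221-3p lie in the upper part of all changes against C, and the interaction is negative for all 3.

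Set side by side, the bright miR-126a-3p passed in none of the 3 comparisons with C. These comparisons share the C hearts, in which miR-126a-5p was undetected and miR-221-3p was detected once, so for both faint miRNAs they restate the detection in the other groups. D + P against D passed in limma for none of the 3 miRNAs, nor did any have an unadjusted p under 0.05, although about as many miRNAs of the array passed there as in D against C. After Benjamini-Hochberg adjustment, where the paper names an adjusted Bonferroni correction, the methods' t-test called 0 of 128 miRNAs in D + P against D. In that comparison 32 had an unadjusted p under 0.05. The same test and adjustment called 74 in D against C and 67 in C + P against C. With Holm adjustment instead, these counts fell to 3 and 4, respectively, while the count for D + P against D remained 0. The size of this contrast thus depends on the adjustment.

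**Figure D5:**
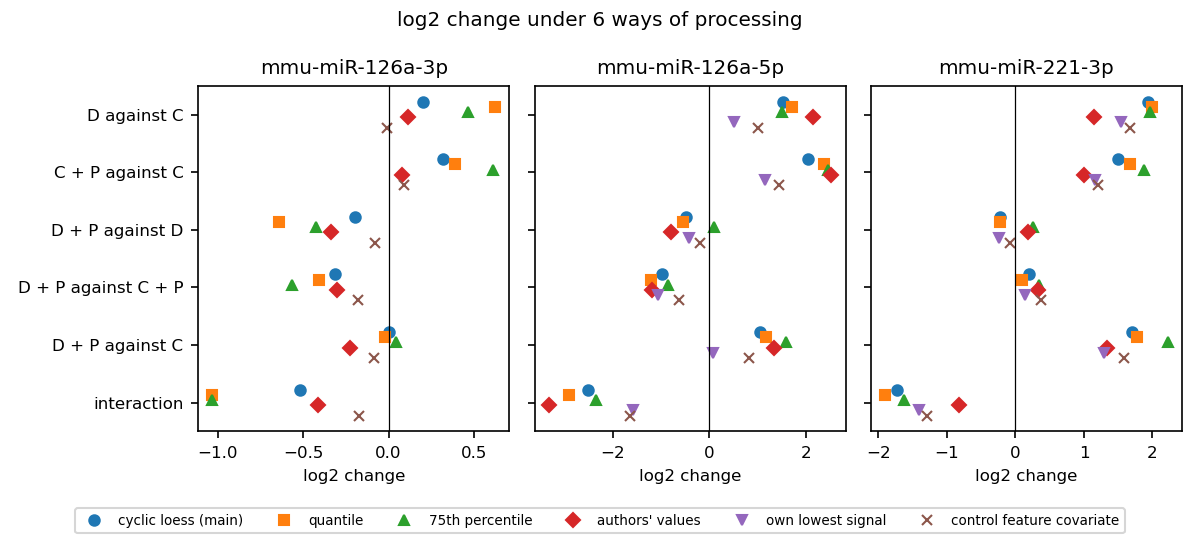
Log2 change (x axis, each panel with its own range) of the 3 miRNAs in 6 comparisons under 6 ways of processing. "Own lowest signal" sets an undetected value to the lowest detected signal of the same miRNA. The interaction stays below 0 in every panel, whereas D + P against D falls on either side of 0 for miR-126a-5p and miR-221-3p.

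Of a list of 31 other miRNAs linked to vessels, all were on the array and 16 were detected in all hearts. In D against C, 9 of these 16 rose and 0 fell, with a median log2 change of 0.52 against 0.022 over the 128 miRNAs, of which 24.2% rose and 50% passed in either direction. They were led by miR-92a-3p (1.39, limma adjusted p = 8.4e-04), which restrains vessel growth, and by miR-322-5p (1.05) and let-7f-5p (0.99). In C + P against C, 8 of the 16 rose and 0 fell (median 0.38), against 18% of the 128 miRNAs that rose and 36.7% that passed in either direction. The largest of these changes were those of let-7f-5p (0.90), miR-146a-5p, which dampens inflammatory signalling (0.84), and miR-322-5p (0.81).

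In D + P against D, 7 of the 16 fell and 0 rose (median -0.37 against -0.086 over the 128, of which 27.3% fell and 53.9% passed in either direction), among them miR-92a-3p (-0.96), let-7f-5p (-0.91) and miR-146a-5p (-0.90). This count was 2 with quantile normalization and 1 with scaling to the 75th percentile. In D + P against C + P miR-146a-5p alone fell (-1.77, limma adjusted p = 0.00113), as did 7.81% of the 128, and in D + P against C none passed. The interaction passed in 11 of the 16, about the 70.3% of all 128, and was negative in these 11 (median of the 16, -0.90), as it passed and was negative in 35.2% of the 128. Among them, let-7f-5p, miR-146a-5p and miR-322-5p had the largest values, -1.82, -1.74 and -1.70. Nothing particular to the list is read from these counts. With scaling to the 75th percentile the list held calls of both signs, 6 higher and 1 lower in D against C and 1 positive and 8 negative in the interaction.

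Markers of the other cells of the heart also differed in level between groups, and they are given without a test. Of 6 cardiomyocyte miRNAs 5 were detected on all arrays and miR-208b-3p on none, so the labelled tissue was matched by its markers, although the extraction text of the sample records names macrophages. Their summed normalized signal was 6394 to 6768 for C, 7954 to 9070 for C + P, 7709 to 8840 for D and 4911 to 8034 for D + P. C lay below C + P and D without overlap, as it did for miR-126a-3p, and D + P hearts spanned the widest range. For 4 fibroblast miRNAs, 3 detected on all arrays, the sums were 140 to 154 for C, 204 to 218 for C + P, 178 to 205 for D and 98.96 to 164 for D + P.

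The 2 smooth muscle miRNAs, both detected on all arrays, summed to 59.8 to 70.5 for C, 86.6 to 103 for C + P, 86.1 to 89.7 for D and 78.8 to 99.5 for D + P, so that C was lowest without overlap. The 5 white cell miRNAs, 2 detected on all arrays, summed to 17.95 to 28.2 for C, 44.6 to 49.1 for C + P, 32.8 to 42.9 for D and 7.82 to 28.4 for D + P. The 3 red cell miRNAs, all detected on every array, were 758 to 943 for C, 584 to 747 for C + P, 676 to 768 for D and 606 to 730 for D + P, with the highest sum in C and an overlap of C with D. The part of these cell types in the changes of the miR-126a arms and miR-221-3p was not tested.

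Among miRNAs detected on all arrays, those most like miR-126a-3p over the 12 hearts by Pearson r of normalized log2 signal were miR-223-3p (0.94), a miRNA of myeloid cells, miR-1a-3p (0.90), a miRNA of heart muscle, and miR-199a-3p (0.90), one of fibroblasts. The median r over all of them was 0.063. For miR-126a-5p, over 9 hearts, they were miR-499-5p (0.92), miR-1a-3p (0.91) and miR-21a-5p (0.89). MiR-221-3p, over 10 hearts, was most like miR-199a-5p (0.84), miR-92a-3p (0.73) and miR-27a-3p (0.72). These values describe the same hearts and arrays that the comparisons used.

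The deposited normalized table holds 3 of the 4 miRNAs and lacks miR-222-3p. It gives values for hearts in which the scanner detected nothing, 1.30, 2.20 and 0.813 for miR-126a-5p in C 1 to 3 and 3.28 and 1.40 for miR-221-3p in C 2 and C 3. Its order within a group can also oppose that of the scanner signals, as for miR-126a-5p in D 3, which is the highest D heart there with 9.60 and the lowest by scanner signal with 6.33.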

How the data were processed

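MiRNAs were profiled on Agilent mouse miRNA arrays in 12 hearts, mapped to C, C + P, D and D + P by the sample titles. Scanner output deposited by the authors gives an intensity with its error for 1881 miRNAs per array and flags whether each was detected, with no normalization between arrays and an undetected miRNA written as 0.1. A deposited table holds intensity values of 209 miRNAs that the authors filtered on detection and normalized by cyclic loess. The miRNAs and lists reported here were chosen with earlier results of these data known, and the rule was to name the 4 miRNAs, the 3 most like each, their hairpin partners, seed sharers and up to 3 vessel-linked miRNAs per comparison.

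Here log2 intensities of the 128 miRNAs detected on all 12 arrays were normalized by cyclic loess (span 0.7, 3 iterations) and the 4 group means were fitted together with lmFit and eBayes (limma 3.58.1, R 4.3.3). The 209 miRNAs detected in every heart of 1 or more groups were fitted likewise for miR-126a-5p and miR-221-3p, with undetected values set to the array's lowest detected signal. P-values were adjusted by Benjamini-Hochberg over all miRNAs of the fit and called under 0.05. The fit of the 128 miRNAs was run on simulated data without undetected values, and the fit of the 209 was not tested in this way. Ratios and correlations were tested by permutation (scipy 1.17.1), exact below 10 arrays and otherwise with 100000 resamples. A missing 5p signal in C left 2 of the planned comparisons of the arms, and none for miR-221-3p with miR-222-3p. Sequences are RefSeq's (GRCm38.p6). Alternatives covered normalization, filters, a pseudocount of 16, the deposited values, the variance model, the replicate number, the adjustment, the methods' t-test, a covariate and each array left out, and a different value for undetected miRNAs was chosen after seeing the data. The number of arrays limits the precision. The mRNA arrays were not analysed here.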

Additional observations from a re-analysis of the deposited data

Results flagged for a closer look

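The interaction term of limma, the change with pargyline in diabetic hearts minus that in control hearts, passed for the 3 miRNAs that could be fitted. On the log2 scale it was -0.52 for mmu-miR-126a-3p (limma adjusted p = 0.0179), -2.51 for mmu-miR-126a-5p (limma adjusted p = 0.00191) and -1.72 for mmu-miR-221-3p (limma adjusted p = 0.00289). The interaction passed for 70.3% of the 128 and 58.9% of the 209 miRNAs tested. For mmu-miR-126a-5p and mmu-miR-221-3p it rests on C hearts with undetected, substituted values, so their p-values are no independent support. With the control features as a covariate none of the 3 passed (limma adjusted p = 0.814, 0.400 and 0.417). With the deposited normalized values that of mmu-miR-126a-5p passed, and those of mmu-miR-126a-3p and mmu-miR-221-3p did not. Outside the group comparisons, mmu-miR-222-3p had a scanner signal of 3.36 in D + P 3 and was undetected in every other heart of all groups, D + P included.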

How the results depend on the processing

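Of 246 values recomputed under another setting, arrays left out aside, 181 kept their direction and side of the threshold, 42 lost the call, 11 gained it and 12 changed sign. Log2 changes are given, and the cause was not tested unless named. For mmu-miR-126a-3p, C + P against C passed with 16 added (0.35), an intensity trend, the methods' t-test or only the compared groups fitted (0.32 in each), the 75th percentile (0.61) or no normalization (1.70). D against C passed with quantile normalization (0.62), the t-test (0.20) or no normalization (1.31) and was -0.0079 with the control feature covariate. D + P against D passed with quantile normalization (-0.64) and D + P against C + P with 16 added (-0.31). D + P against C turned to -0.22 with the deposited values, -0.088 with the covariate, -0.0035 among the 209 miRNAs and -0.021 with quantile normalization. The interaction did not pass with Holm adjustment (-0.52), the deposited values (-0.41), the covariate (-0.17) or no filter (-0.84), which tests all 1881 miRNAs.

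For mmu-miR-126a-5p, D + P against C did not pass with 16 added (0.17), the deposited values (1.34), the covariate (0.82), no filter (0.97), the own lowest signal (0.075) or, at 1.06, with Holm adjustment, an intensity trend, the t-test or only the compared groups. D + P against C + P did not pass with the deposited values (-1.18), the covariate (-0.63), each slide alone (-1.06), no filter (-0.92), no normalization (-1.37), the 75th percentile (-0.85) or, at -0.98, with Holm adjustment, the trend, the t-test or only the compared groups. With the covariate, C + P against C (1.45), D against C (1.01) and the interaction (-1.64) did not pass, and without a filter D against C (1.50) and the interaction (-2.42) did not. D against C did not pass with the own lowest signal (0.50). With the 75th percentile D + P against D turned to 0.097, against a median of 0.15 over the 128 miRNAs.

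For mmu-miR-221-3p, D + P against C did not pass with 16 added (0.46), the deposited values (1.33), the t-test (1.70) or no filter (1.75). The deposited values also ended the calls of D against C (1.15), C + P against C (1.00) and the interaction (-0.82), and turned D + P against D to 0.18, as the 75th percentile did to 0.25 (median of the 128 miRNAs 0.15). The covariate ended C + P against C (1.21) and the interaction (-1.29), as no filter did the interaction (-1.82). D + P against C + P was -0.17 without normalization, against a median of -0.41. The difference of the arms in D + P against D turned to -0.11 with quantile normalization and -0.52 without normalization. With quantile normalization the correlation of the arms was 0.64 and did not pass, and that of miR-126a-5p with miR-221-3p turned to 0.23.

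No sign was seen that replicate numbers pair the hearts. Deviations of same-numbered hearts from their group means correlated with a median of -0.139 over 18 pairs, of which 4 exceeded 0.1. For hearts of other numbers the median was 0.0519 over 36 pairs, of which 16 exceeded 0.1. With 3 hearts in a group this cannot exclude a pairing. With the replicate block, mmu-miR-126a-5p lost the calls of D + P against C (1.06, limma adjusted p = 0.0702) and D + P against C + P (-0.98, limma adjusted p = 0.0798), and no other call changed. With single arrays left out, C + P against C of mmu-miR-126a-3p ranged from 0.29 to 0.38, D + P against C from -0.077 to 0.090 and D + P against C + P from -0.40 to -0.25. For mmu-miR-126a-5p, D + P against C ranged from 0.77 to 1.22, D + P against C + P from -1.27 to -0.78 and D + P against D from -0.78 to -0.25. Uncalled values moved by over 1.5 times as well, D + P against D of mmu-miR-126a-3p from -0.28 to -0.11 and of mmu-miR-221-3p from -0.42 to -0.070, D + P against C + P of mmu-miR-221-3p from 0.029 to 0.34, and the arm difference in D + P against D from 0.025 to 0.32 and in D + P against C + P from 0.43 to 0.72. The faint signals of mmu-miR-126a-5p, mmu-miR-221-3p and mmu-miR-222-3p limit every comparison with the dim C arrays.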
